A study of Mus musculus with 6 samples.

Results

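The distant contacts of the Satb1 promoter on the telomeric side of mouse chromosome 17 were taken as all DpnII fragments with a midpoint more than 5 Mb beyond the bait, which lies at position 51962000 of chr17 (mm9). They number 93232 of the 229546 fragments listed for chr17, and of 916352 fragments on the 3 bait chromosomes of the series. They span 38.3 Mb, up to the end of the chromosome. The rule uses position alone.

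4C-seq counts how often 1 chosen fragment, the bait, was ligated to every other fragment after nuclei were cross-linked with formaldehyde and cut with DpnII at GATC. The bait at Satb1 was used in 1 library from DP cells and 1 from ES cells, so no difference below has a replicate or a test. DP cells are CD4+/CD8+ thymocytes sorted by FACS from the thymus of c57/Bl6 mice 4 weeks old, and ES cells are the J1 line of strain 129S4/SvJae, grown on feeders and then passaged without them. Both carry no stated engineered allele or treatment, both were fixed with 2% formaldehyde for 10 min, and both DNA samples were cut a second time with Csp6I at GTAC. Cell type, strain and preparation cannot be told apart: the labels give both cells the same permeabilisation, whereas the methods of the paper give the thymocyte nuclei a stronger SDS treatment. How many mice gave the thymocytes is not given in the sources used here, and the files hold ligated DNA, so no marker gene of either cell type can be checked.

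Satb1 encodes a chromatin-binding protein needed for thymocyte development, and the gene is active in thymocytes and silent in ES cells. Contacts fall steeply with distance along a chromosome, and beyond several megabases they tend to join stretches of like chromatin: active, gene-rich segments meet other active segments, and silent, gene-poor segments meet other silent ones. A locus that changes its activity can therefore differ between cell types in the megabases it meets as well as in its nearby enhancers.

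A fragment was called detected with at least 1 read. Detection was used as the main measure because copies made in the PCR of 1 ligation product raise the reads of a fragment but not the number of fragments. In every full megabase that differed by 2-fold or more, the fragment with the most reads in the library that was higher there was looked up. The choice was among fragments of at most 300 bases that touch no annotated untranslated region. Both ends also had to occur only once among the DpnII ends of the genome. The fragments from 3 bins higher in DP and from 3 higher in ES are printed to show what a single distant contact is. Capitals mark GATC, where DpnII cut, and GTAC, where Csp6I cut; the letters are those of the mm9 plus strand, not of the reads.
chr17:87875176-87875442: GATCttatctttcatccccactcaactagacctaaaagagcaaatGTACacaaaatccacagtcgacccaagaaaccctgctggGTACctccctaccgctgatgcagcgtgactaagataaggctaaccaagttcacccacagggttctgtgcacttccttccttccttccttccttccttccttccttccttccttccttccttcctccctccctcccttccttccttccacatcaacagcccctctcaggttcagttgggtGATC
chr17:84701676-84701701: GATCcgagacaagcctgactctGATC
chr17:86994153-86994218: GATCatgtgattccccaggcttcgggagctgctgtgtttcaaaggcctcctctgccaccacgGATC
chr17:67901727-67901948: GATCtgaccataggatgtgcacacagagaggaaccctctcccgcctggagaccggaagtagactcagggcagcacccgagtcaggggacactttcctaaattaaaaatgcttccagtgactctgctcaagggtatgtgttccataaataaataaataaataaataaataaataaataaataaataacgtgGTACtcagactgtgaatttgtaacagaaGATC
chr17:68994703-68994864: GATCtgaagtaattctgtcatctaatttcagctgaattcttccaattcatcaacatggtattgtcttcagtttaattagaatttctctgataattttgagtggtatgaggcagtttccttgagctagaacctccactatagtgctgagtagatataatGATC
chr17:69024555-69024602: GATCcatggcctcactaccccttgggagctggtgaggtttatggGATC

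The first, 267 bases with 2 GTAC sites, is intergenic, 29.0 kb from the start of Calm2, a calmodulin gene, and carried 1078 reads in DP and 0 in ES. The second, of 26 bases, lies in an intron of Thada and carried 1043 DP reads and 0 ES reads. The third, of 66 bases, lies in an intron of Prkce, which encodes protein kinase C epsilon, with 577 and 0 reads. Of the fragments led by ES, the first, of 222 bases, is intergenic, 80.2 kb from the start of Lrrc30, with 222 ES reads. The other pair, of 162 and 48 bases, lies in an intron of L3mbtl4, a gene of the MBT-domain family, with 1469 and 349 ES reads, and each of the 3 had 0 DP reads. Few single fragments were detected at all, and 49 were detected in both libraries. ES thus detected 5.20% of the fragments detected in DP, beside 2.97% of all fragments of the side. DP detected 1.77% of those detected in ES, beside 1.01% of all. The small overlap goes with low detection and does not show that the libraries met separate fragments. With detection this sparse, the comparison below rests on how many fragments of a bin were detected, not on single fragments.

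The files held 1997083 reads in DP and 1847598 in ES, and the DP library was the more concentrated around the bait, with 83.0% of its reads within 1.5 Mb against 66.8% in ES. On the telomeric side beyond 5 Mb lay 125682 DP reads, 6.29% of that library, and 269480 ES reads, 14.6%. Detected were 943 of the 93232 fragments in DP, 1.01% (exact Clopper-Pearson 95% interval 0.948 to 1.08%), and 2767 in ES, 2.97% (2.86 to 3.08%). These intervals and those below cover counting error only, since PCR reads without molecular identifiers are not independent molecules and no second library exists. A detected fragment carried a median of 21 reads in DP and 24 in ES, while the 100 most-read fragments held 54.5% of the DP reads and 28.3% of the ES reads of the side.

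The libraries were closer to each other in the centromeric direction. Over the 110871 fragments more than 5 Mb away on the centromeric side, DP detected 1.07% and ES 1.36%. The telomeric level was thus 0.942 times the centromeric one in DP (interval 0.864 to 1.03) and 2.18 times in ES (2.04 to 2.32). Because ES detected nearly 3 times as many telomeric fragments, levels are given below as relative detection, the share of a bin's fragments that was detected divided by the share over all telomeric fragments of the same library. A value of 1 is the average of the side, and the DP over ES ratio compares where each library put its contacts, not how many it had.

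Detected fragments lay farther out in DP, at a median distance of 27.2 Mb from the bait, than in ES, at 20.6 Mb; the median of all fragments of the side was 24.2 Mb. In steps of 5 Mb starting at 5, 10 and 15 Mb the DP over ES ratio was 0.709, 0.744 and 0.518. In the steps from 20 and 25 Mb the ratio was 1.03 and 0.981, close to even. From 30 and 35 Mb DP was the higher, with 1.71 (interval 1.41 to 2.07) and 1.87 (1.53 to 2.29). In the last step, from 40 Mb, both were low, at 0.501 in DP and 0.427 in ES. The ES level rose from 0.962 in the step from 5 Mb to 1.42 in that from 10 Mb, and then fell in each later step. Across the 39 bins of 1 Mb its Pearson's r with distance was -0.65 and its Spearman's rank coefficient -0.65. The DP level had little relation to distance (r 0.10, rank coefficient 0.02). Such correlations are descriptions across bins that share a library, its depth and base composition, and are not tests.

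**Figure D1:**
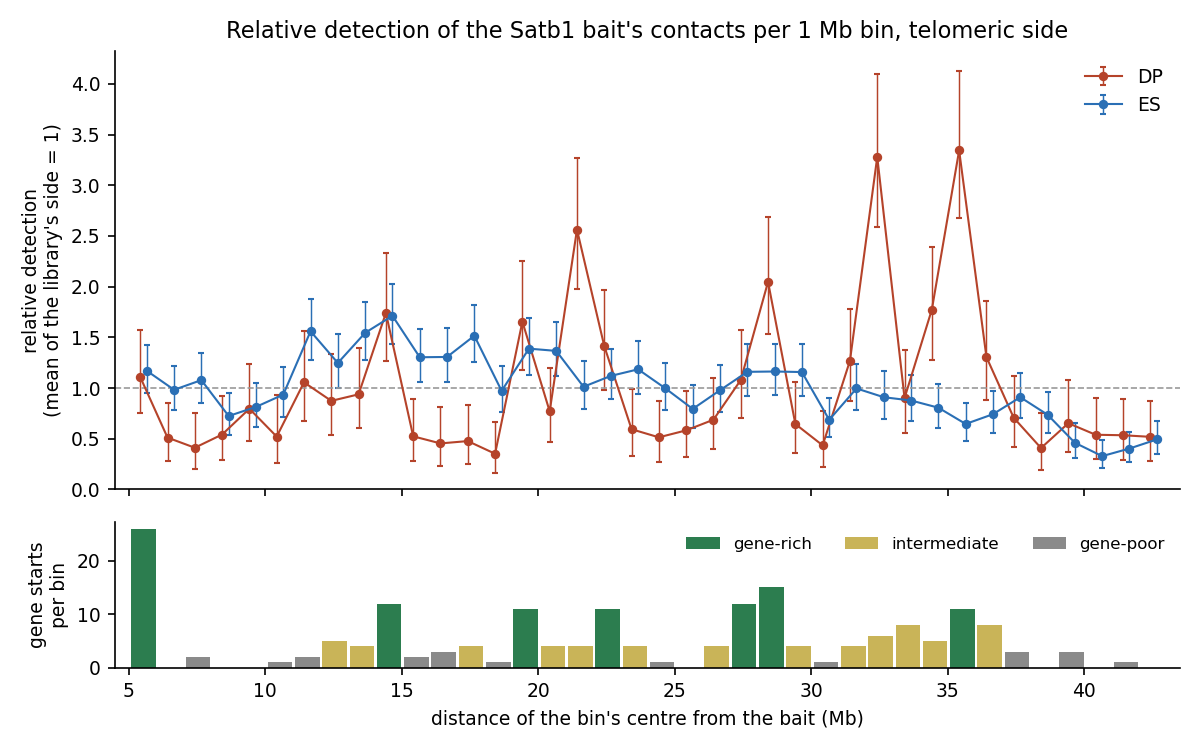
Relative detection (1 = average of the library's telomeric side) of the Satb1 contacts in the 38 full bins of 1 Mb against distance from the bait in Mb, for DP (red) and ES (blue), with exact 95% counting intervals; bars below give protein-coding gene starts per bin, coloured by gene class. DP stands in sharp peaks, up to 3.34 and 3.28, between long stretches near 0.5, while ES declines gently beyond its top of 1.71.

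The profiles also differed in shape. Over the 38 full bins of 1 Mb, relative detection ran from 0.351 to 3.34 in DP, a 9.52-fold range, and from 0.328 to 1.71 in ES, a 5.22-fold range. A change from 1 bin to the next averaged 0.663 in DP and 0.197 in ES. Counting error alone gives a single average bin an SD of 0.201 and 0.118. A difference between neighbours carries more counting error than a single bin, so these SDs understate the error of a change. In DP, 7 bins stood at 1.5 or higher and 18 at 0.67 or lower; in ES 4 and 5 did. Of all 40 bins, the 5 with the most detected fragments held 33.5% of all DP detections and 20.2% of the ES ones, and 1 bin was among the 5 in both. It took 10 bins to reach 50% of the DP detections and 15 to reach it in ES. Levels in DP and ES bins were nearly unrelated (r 0.10, rank coefficient 0.23, n = 39). Odd and even fragments of the same library, in contrast, gave r 0.90 and rank coefficient 0.68 in DP and 0.81 for both in ES, which shows that neighbouring fragments carried like levels but says nothing of the error between animals or cultures.

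A bin was called different when the DP over ES ratio was 2 or more or 0.5 or less, with at least 10 detected fragments in both libraries together. Of 40 bins of 1 Mb, 39 had enough. Of these, 4 were higher in DP, 10.3%, and the same rule called 13.3% of all bins beyond 5 Mb on both sides of chr17, each side scaled to itself. Higher in ES were 6 bins, 15.4% against 14.5% over both sides. The number of switched megabases was therefore close to that of the chromosome at large, and what follows describes which they are. The ratio was above 1 in 15 bins and below it in 24, with a median of 0.748.

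The DP bins were led by the megabase from 87 Mb, the most-contacted of the whole side in DP. Of its 2454 fragments, 83 were detected in DP and 47 in ES, which is a relative detection of 3.34 and 0.645 and a ratio of 5.18 (interval 3.58 to 7.58). This bin and that from 84 Mb were the 2 full bins with more detected fragments in DP than in ES before any scaling. It is gene-rich, with 11 protein-coding starts, among them Epas1, a transcription factor of the hypoxia response, Socs5, a suppressor of cytokine signalling, Ttc7, whose loss gives the flaky-skin phenotype in mice, and 1700011E24Rik. Across Epas1 12 of 194 fragments were detected in DP and 3 in ES.

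The megabase from 84 Mb had 75 detected fragments in DP and 61 in ES of 2261, levels of 3.28 and 0.909 and a ratio of 3.61 (2.54 to 5.14). It also held more reads than any other bin in DP, 14266 or 11.4% of those on the side, against 6405 in ES. Its 6 genes include Zfp36l2, an RNA-binding protein that destabilises mRNAs in developing lymphocytes, Mta3, a subunit of the NuRD chromatin-remodelling complex, Thada and Plekhh2. Thada was detected on 22 of its 581 fragments in DP and 16 in ES, and Mta3 on 8 of 260 in each, which is a share of 3.08% in both libraries before scaling.

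The megabase from 73 Mb had 63 detected fragments in DP and 73 in ES of 2430, levels of 2.56 and 1.01 and a ratio of 2.53 (1.78 to 3.60). Its 4 genes are Ypel5, Lbh, which encodes a transcription cofactor, Lclat1, an acyltransferase of cardiolipin remodelling, and Capn13, a calpain protease. Lbh had 6 detected fragments of 59 in DP and 2 in ES, and Lclat1 10 of 302 in each. The megabase from 86 Mb was the weakest of the 4, with 42 and 56 detected fragments of 2342, levels of 1.77 and 0.806 and a ratio of 2.20 (1.44 to 3.34). It starts with the homeobox genes Six3 and Six2, expressed in the developing forebrain and kidney, and goes on with Srbd1 and Prkce. The detections in DP lay mostly at its Prkce end, with 31 of the 42 in the bin of 0.5 Mb from 86.5 Mb. Of the 490-kb gene's 1164 fragments, 37 were detected in DP, with 5500 reads, and 25 in ES, with 2667 reads, while over Six3 DP detected 0 of 48 fragments, which allows a share of up to 6.25%, and ES 4.

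In the 4 DP bins the DP detections did not come from 1 window alone. Of the 10 windows of 100 kb in each, 9 or 10 held a DP detection, and the most-read fragment held between 7.31% and 13.5% of a bin's DP reads. With 42 to 83 DP detections in a bin, hits in most windows do not show an even spread. After scaling, 7 of the 10 windows were higher in DP in the bin from 86 Mb, and 9 or 10 in the others. The fullest DP window began at 87.0 Mb, with 16 detections, and the next at 73.2 Mb, with 15. By reads per fragment all 4 bins also differed by 2-fold or more, with ratios between 2.54 and 5.10. Here and below, reads come from the same detected fragments as the call, so they are no separate check.

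Of the 6 ES bins, 4 formed 1 block. From 67 to 71 Mb these 4 bins in a row were higher in ES: over 9877 fragments 45 were detected in DP and 373 in ES, levels of 0.450 and 1.27 and a ratio of 0.354 (interval 0.254 to 0.483). The ratio was 0.402 from 67 Mb, which starts Ptprm, a receptor tyrosine phosphatase of cell contacts, and Lrrc30. It was 0.347 from 68 Mb, with Lama1, a laminin chain of the embryonic basement membrane, Arhgap28 and L3mbtl4. It was 0.314 from 69 Mb, with Epb4.1l3, a membrane-skeleton protein, the zinc finger gene Zfp161, C030034I22Rik and A330050F15Rik, and 0.362 from 70 Mb, with Dlgap1, a postsynaptic scaffold. ES had a detection in every 100-kb window of the block, with 4 to 16 per window, and DP had no more than 3 in any window. These are counts before scaling, and ES detected 2.97% of all fragments of the side against 1.01% in DP. After scaling, 9 or 10 of the 10 windows in each of these bins were higher in ES.

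The gene bodies, which hold fragments of the same bins, gave mixed values by reads. Over Ptprm, 9 of 1674 fragments were detected in DP and 65 in ES, with 783 and 6373 reads, a reads ratio of 0.263 after scaling to the side. Over Dlgap1 12 and 75 of 2116 were detected, with 3563 and 8054 reads, a reads ratio of 0.949. Lama1 had 0 detected fragments of 273 in DP, which allows a share of up to 1.10%, and 10 in ES, and the interval of its ratio reached 1.31. Outside the block, the bin from 59 Mb, with Nudt12, a nucleotide hydrolase, and 2610034M16Rik, had 10 detected fragments in DP and 77 in ES, levels of 0.411 and 1.08 and a ratio of 0.381 (0.176 to 0.739). The last call was the cut bin at the chromosome end, 0.273 Mb from 95 Mb with Mettl4 and 2610044O15Rik, which rested on 1 detected fragment in DP and 14 in ES, with a ratio of 0.210 and an interval from 0.00496 to 1.38 that spans 1. By reads per fragment, 5 of the 6 ES calls were also 0.5 or less; the bin from 70 Mb stood at 0.696.

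Just outside the limits, the bins from 80 and 88 Mb both had a ratio of 1.76, with intervals of 1.22 to 2.52 and 1.08 to 2.82. The bin from 80 Mb, gene-rich with 15 starts, was the fourth highest in DP, at 2.05 against 1.16 in ES. On the ES side the bin from 75 Mb missed the limit at 0.501 (0.262 to 0.889), and those from 76 and 58 Mb stood at 0.515 and 0.520. The megabase most contacted in ES was not a switched one. From 66 Mb, 127 of 2499 fragments were detected in ES and 44 in DP, levels of 1.71 and 1.74 and a ratio of 1.02 (0.704 to 1.44). It is gene-rich, with 12 starts, among them Twsg1, a modulator of BMP signalling, Ankrd12, the small GTPase gene Rab31 and 1110012J17Rik. At its edge with the ES block, DP detection dropped from 44 to 13 fragments in the next megabase while ES went from 127 to 95.

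**Figure D2:**
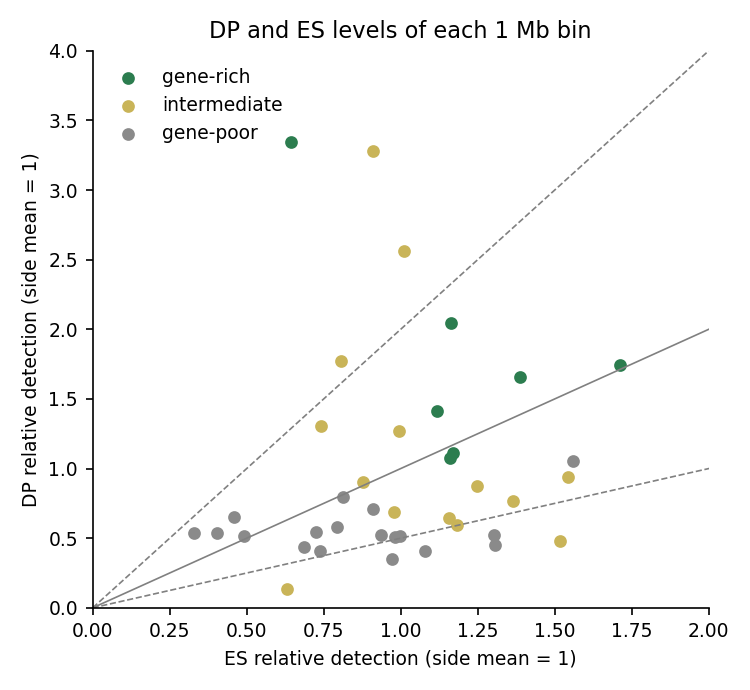
DP against ES relative detection for the 39 bins of 1 Mb with at least 10 detected fragments, coloured by gene class; the solid line marks equal levels and the dashed lines a 2-fold difference either way. The 4 bins above the upper dashed line reach 3.34 in DP at ES levels of 0.645 to 1.01, and gene-poor bins stay below 1.06 in DP across the ES range.

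Halving the bins to 0.5 Mb placed the edges more closely. Of 78 such bins, 77 had 10 or more detected fragments. Higher in DP were 7, 9.09% against 18.9% over both sides of the chromosome, and higher in ES 23, 29.9% against 23.2%. The DP calls were thus fewer and the ES calls more frequent than over both sides together, although 11 of the 23 ES bins had an interval that reached 1 or beyond and 9 of the 23 did not pass by reads, 4 of them (from 59.5, 63.0, 70.5 and 78.0 Mb) with a reads ratio above 1. All 7 DP bins passed by reads and had intervals above 1.

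The DP bins of 0.5 Mb began at 73.0, 80.5, 84.0, 84.5, 86.5, 87.0 and 87.5 Mb. The highest, from 87.0 Mb, had 50 detected fragments in DP and 23 in ES of 1256, a level of 3.94 against 0.617 and a ratio of 6.38 (3.82 to 10.9). Together with its neighbours it made a run of 1.5 Mb from 86.5 to 88 Mb, with 3622 of the 93232 fragments of the side. The run held 12.1% of all DP detections and 2.64% of the ES ones, 114 and 73 fragments. Its levels were 3.11 and 0.679, with a ratio of 4.58. The run from 84 to 85 Mb, with 2261 fragments, held 7.95% and 2.21%, at levels of 3.28 and 0.909. Between these runs, from 85 to 86.5 Mb, DP fell back to 0.909 beside 0.871 in ES, and after 88 Mb to 1.31 beside 0.742. The DP over ES ratio was 3.27 in the bin from 73.0 Mb and 2.05 in that from 80.5 Mb, which has 10 gene starts.

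The ES calls of 0.5 Mb fell into runs from 59 to 60, 62.5 to 63.5 and 67 to 71 Mb and into single bins. All 8 bins of the block from 67 to 71 Mb were called, with ratios of 0.199 to 0.476, although by reads the bins from 69.5 and 70.5 Mb stood at 0.754 and 1.45. The lowest, from 69.0 Mb, had 4 detected fragments in DP and 59 in ES. By detection, and at the resolution of the bins, the block lay between the gene-rich megabase from 66 Mb and the gene-rich one from 71 Mb. In the latter DP stood at 1.65 and ES at 1.39. The far edge is not firmly placed, since the interval of the bin from 70.5 Mb, 0.164 to 1.14, spans 1.

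**Figure D3:**
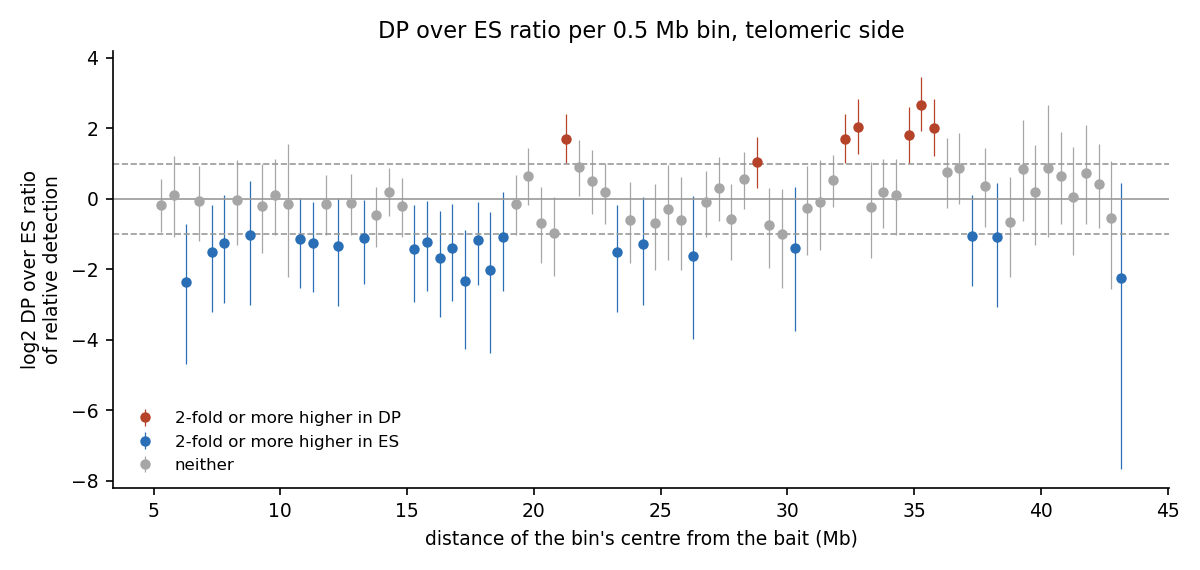
Log2 DP over ES ratio of relative detection for the 77 bins of 0.5 Mb against distance from the bait in Mb, with exact 95% counting intervals; red and blue points differ by 2-fold or more (dashed lines) and grey points do not. The 7 red points all lie beyond 20 Mb, and 8 blue points in a row mark the block higher in ES.

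Bins were classed by their protein-coding gene starts, as gene-rich with 10 or more per Mb and as gene-poor with 3 or fewer. On the telomeric side 8 bins were gene-rich, 14 intermediate and 18 gene-poor. Gene-rich bins had a DP level of 1.76 (interval 1.57 to 1.96) and an ES level of 1.19 (1.10 to 1.29). Intermediate bins had 1.20 in DP and 1.10 in ES. Gene-poor bins had 0.555 in DP (0.488 to 0.628) and 0.854 in ES (0.805 to 0.905). The step from gene-poor to gene-rich was thus 3.17-fold in DP (2.67 to 3.76) and 1.40-fold in ES (1.26 to 1.54). The ES level also fell with distance. The gene-poor class includes a run of 6 bins near the bait at an ES level of 1.01. Another run of 6, near the chromosome end, stood at 0.553. In DP these runs stood at 0.634 and 0.558. On the centromeric side the same step was 1.52-fold in DP and 1.53-fold in ES, so the telomeric DP step was the largest of these 4 values.

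The calls were counted by class. None of the 18 gene-poor bins was higher in DP and 4 were higher in ES; of the 7 gene-rich bins with enough fragments, 1 was higher in DP and 0 in ES. The remaining 3 DP calls and 2 ES calls were in the 14 intermediate bins. Over all bins 10.3% were called for DP and 15.4% for ES, beside 14.3% for DP among gene-rich and 22.2% for ES among gene-poor ones. At 0.5 Mb, 0 of 40 gene-poor bins were called for DP and 15 for ES, of 12 gene-rich bins 3 were called for DP and 0 for ES, and of 25 intermediate bins 4 and 8. The ES share of gene-poor bins was 37.5% beside 29.9% of all bins. The order of DP levels was not that of gene number: the gene-rich bin from 79 Mb, with 12 starts, had a level of 1.08, and that from 84 Mb, with 6, had 3.28. Across the 39 bins gene density went with the DP level at r 0.47 and rank coefficient 0.68, and with the ES level at r 0.31 and rank coefficient 0.40.

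Base composition moved with the classes. The median GC content was 43.9% in gene-rich, 43.2% in intermediate and 37.8% in gene-poor bins, and the median share of fragments with an end found once among the DpnII ends of the genome was 92.3%, 91.2% and 82.1%. GC content went with the DP level at r 0.66 and with the ES level at r 0.47. Gene density, GC content and mappability cannot be told apart in 39 bins, and distance from the bait was not separated from gene class either. Over fragments with a unique end alone, an alternative chosen after seeing the data, the gene-rich to gene-poor step was 3.14 in DP and 1.28 in ES. Intermediate bins stood between the other classes in median GC content and in the levels of both libraries. Whether GC content or mappability sets these levels was not tested.

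**Figure D4:**
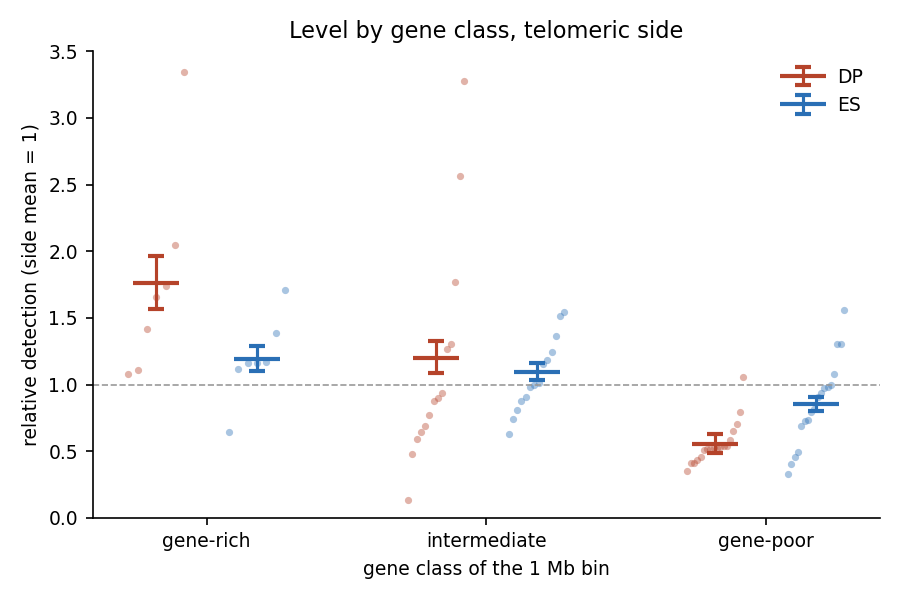
Relative detection on the telomeric side by gene class of the 1 Mb bin, for DP (red) and ES (blue); small points are single bins, thick marks the level over all fragments of the class with its exact 95% counting interval. The DP level goes from 1.76 to 0.555 and the ES level from 1.19 to 0.854 between gene-rich and gene-poor bins.

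Gene-rich bins rarely stood side by side, whereas gene-poor ones formed long runs. The longest gene-poor runs each took 6 bins. From 58 to 64 Mb, nearest the bait, DP had 91 detected fragments and ES 426, levels of 0.634 and 1.01 and a ratio of 0.627. From 89 to 95 Mb, near the chromosome end, DP had 85 and ES 247, levels of 0.558 and 0.553 and a ratio of 1.01. DP was thus at a like level in both runs, and ES was at the average of the side in the near one and below it in the far one. The runs of gene-rich bins took 2 bins each: 79 to 81 Mb, with 77 detected fragments in DP and 167 in ES and a ratio of 1.35, and the start of the side up to 58 Mb, where 1 of the 2 bins is a remnant of 38 kb, with 32 and 99 and a ratio of 0.948. The run of 4 intermediate bins from 83 to 87 Mb has 9481 of the 93232 fragments of the side. It held 18.1% of the DP detections and 9.14% of the ES detections, levels of 1.78 and 0.899.

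Detected fragments lay in protein-coding gene bodies equally often in both libraries, 44.4% in DP and 44.4% in ES, against 37.7% of all fragments of the side. Within 10 kb of a gene start lay 14.0% of the DP detections (11.8 to 16.4%), 10.3% of the ES ones (9.16 to 11.5%) and 8.23% of all fragments. Split by class, fragments near a start were detected 1.14 times as often as others in gene-rich bins in DP (0.871 to 1.48) and 1.05 times in ES (0.867 to 1.27). In intermediate bins these values were 1.57 (1.14 to 2.11) and 1.15 (0.930 to 1.41). In gene-poor bins, where DP detected 3 of 895 fragments near starts and ES 34, they were 0.592 (0.121 to 1.75) and 1.52 (1.04 to 2.13). In fragment make-up the libraries were alike: 50.1% of the DP and 51.6% of the ES detections held a GTAC site against 44.9% of all fragments, and the median length was 329 and 355 bp against 268 bp.

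Of 183 protein-coding genes of the side with a fragment, 113 had a read in DP, 145 in ES and 105 in both. Genes named next were picked after their values had been seen. Over Cntnap5c, a long gene at the start of the near gene-poor run, 6 of 1730 fragments were detected in DP and 51 in ES, with a ratio of 0.345 (0.121 to 0.804). Alk, a receptor tyrosine kinase gene between the ES block and the DP bin from 73 Mb, had 12 of 1830 in DP and 77 in ES, with a ratio of 0.457 (0.226 to 0.845). The ratio of Prkce was 4.34 (2.55 to 7.53), that of Thada 4.03 (2.02 to 8.22) and that of Epas1 11.7 (3.17 to 64.8).

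Genes with known roles in lymphocytes, a list of 15, had 5 starts in bins higher in DP (Lbh, Zfp36l2, Mta3, Prkce and Socs5) and 1, Ptprm, in a bin higher in ES. Of all 185 protein-coding starts of the side, 26 (14.1%) were in the DP bins and 14 (7.57%) in the ES bins. The others were in bins that were not called, such as Vav1, a signalling protein of the antigen receptors, in the bin from 57 Mb at a ratio of 0.948, Hnrpll, a splicing regulator of lymphocytes, from 80 Mb at 1.76, and Rasgrp3 from 75 Mb at 0.501. Of 14 genes with roles in embryonic or early cells, 3 were in DP bins (Six2, Six3 and Epas1) and 1, Lama1, in an ES bin. The 11 bins of the first list had a median ratio of 1.19 and the 10 bins of the second 1.23, beside 0.748 over all bins. With each gene counted, also where genes share a bin, the medians were -0.08 and 0.58 as log2 ratios, beside -0.42 over all bins. All bins include some without a protein-coding start, and no median over all gene starts was computed. Neither list can therefore be called higher in DP than other genes of the side. Both lists were drawn up with these results known. Among the genes themselves, Map4k3 had 2 detected fragments of 334 in DP and 18 in ES, Rasgrp3 1 and 7 of 180, Efna5, an ephrin ligand, 3 and 24 of 538, and Smchd1, a chromatin protein of X inactivation, 2 and 11 of 304.

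Directions depend on scaling to the side. When both libraries were instead scaled to all fragments beyond 5 Mb on either side, the median log2 ratio moved by -0.55, and the gene-rich ratio of 1.47 became 1.01. With reads scaled to the library's total, the gene-rich ratio was 0.591 and the gene-poor ratio 0.273, so ES was higher in both classes. The bins from 73, 84, 86 and 87 Mb kept a log2 ratio above 0 under both scalings, with the lowest value, 0.13, for the bin from 86 Mb with the library's total. Those from 84 and 87 Mb stayed past 2-fold under both, and those from 73 and 86 Mb did not, with 0.79 and 0.59 scaled to both sides and 0.44 and 0.13 with the library's total.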

How the data were processed

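4C-seq libraries with the Satb1 bait from DP thymocytes and J1 ES cells were compared, 1 library each. The authors removed bait sequence (up to 2 mismatches), aligned the other 26 nt to mm9 and deposited a whole-number read count for each DpnII fragment on the bait's chromosome. The submitters' notes name Bowtie 1.0.0. The counts are not normalized and PCR copies are not removed; in the paper's guide, fragments above 2% of the reads are dropped. Every column used was mapped to its sample (0 unmatched). The other 4 libraries, of other baits, were read for their totals only.

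All 229546 midpoints matched DpnII fragments of the mm9 sequence. Gene starts are those of GENCODE vM1. Bins started at whole multiples of their size; those cut by the 5 Mb limit or the chromosome end were kept. Relative detection, its DP over ES ratio and exact (Clopper-Pearson and conditional binomial) 95% intervals were computed with numpy version 2.4.6, pandas version 2.3.3 and scipy version 1.17.1 in Python version 3.11.15, and figures drawn with matplotlib version 3.10.9. The bin script was tested on simulated data. A full bin of 1 Mb had a median of 17.5 detected fragments in DP and 73.5 in ES, although the DP library had more reads in all. With 1 library per group no test was run.

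Members, gene lists and thresholds were chosen with earlier results of these data known. Named are the bins with the 5 largest and 5 smallest ratios among those called, the top bin of each library and the longest runs, with all genes of a bin with 4 or fewer and otherwise its list members and 3 longest. The bin from 67 Mb with its genes, the bins near the limits, Calm2 and the genes named with the gene bodies, other than list members, fall outside this rule and were chosen after their values were seen. Alternatives covered the measure, detection limit, scaling, bin size and start, fold, fragments used and class limits.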

Additional observations from a re-analysis of the deposited data

How the results depend on the processing

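At 1 Mb, 4 bins were higher in DP and 6 in ES. ES counts went to 13 by reads per fragment, by capped reads and with detection at 5 reads or more. Scaled to both sides they were 2 and 18, and with reads scaled to the library's total 2 and 24, where each library's own share of distant reads enters; the DP bins from 73 and 86 Mb are lost under both. Bins of 0.5 Mb gave 7 and 23, and a fold of 1.5 gave 7 and 15. Bins of 1 Mb shifted by 0.5 Mb gave 4 and 6 again. All 4 DP bins were also called by reads, capped reads, 5 reads or more, odd fragments, even fragments and fragments with a unique end; of the 6 ES bins 5, 5, 6, 5, 3 and 6 were. With GTAC fragments alone 3 and 4 of them were. None of the called bins recomputed (all but that from 67 Mb) turned its direction in the alternatives of measure, detection limit, scaling or fragments used, while the bin from 66 Mb, not called at a log2 ratio of 0.02, ran from -1.45 to 0.34. The cut bin at the chromosome end had no DP detection among odd fragments and gave no value there.

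Gene-rich over gene-poor was 3.91 in DP with detection at 5 reads or more, and its DP over ES ratio then 2.81 in place of 2.27; other alternatives moved these by less than the counting interval. The telomeric share of 6.29% in DP and 14.6% in ES was 7.34% and 16.0% with capped reads, 17.1% and 27.9% of detected fragments, and 37.0% and 44.0% of reads beyond 1.5 Mb. Odd and even fragments agreed at r 0.79 in DP and 0.25 in ES by reads, and at 0.80 in DP at 0.5 Mb. A lower fold can only add calls by construction. The cause of the other shifts, that with smaller bins included, was not tested.

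With 9 to 83 detected fragments per full bin in DP, ratios near the limits cannot be placed firmly. Counting intervals leave out the spread between animals or cultures. No paired analysis was possible because each group has 1 library.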
